A study of Caenorhabditis elegans with 50 samples.

Results

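Germline-less glp-1(e2141) worms were compared with 2 strains that carry the same glp-1 allele and also lack normal daf-16. The comparison used 15 of the 50 libraries of the series, 5 for glp-1(e2141), 5 for daf-16(mg54);glp-1(e2141) and 5 for daf-16(mu86);glp-1(e2141). They were chosen by strain, not by any measured value. All 15 came from whole hermaphrodites of the nematode Caenorhabditis elegans on day 1 of adulthood after 48 hours at 25 °C. At this temperature the e2141 allele, which all 3 strains carry, leaves animals without a germline. The mg54 allele is a nonsense change in daf-16 and mu86 is a deletion. No wild type at 25 °C was analysed here, so nothing below compares glp-1 animals with normal ones. Polyadenylated RNA was sequenced as paired ends, and the values are estimated fragment counts for 33458 gene entries, of which 10391 had enough fragments to be tested. The labels describe the 5 libraries of a strain as separate biological samples.

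GLP-1 is a Notch receptor that keeps germline stem cells dividing. Worms that lose these cells store more fat and live longer, and this longer life needs DAF-16, the FOXO transcription factor that insulin/IGF-1 signalling otherwise keeps out of the nucleus. In animals without germline stem cells DAF-16 gathers mainly in intestinal nuclei. There it works beside TCER-1, KRI-1, the steroid receptor DAF-12 and several fat-sensing nuclear receptors, and the lysosomal lipase gene lipl-4 is one of its known targets.

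Library totals ran from 13.82 to 23.81 in units of 1000000 fragments. Germline markers gave few fragments in all 3 strains. Of 35 oogenic and 46 sperm marker entries, 26 and 35 had too few fragments to test, and 0 of the 9 and 0 of the 11 tested passed edgeR's quasi-likelihood test, with 0 at an unadjusted p under 0.05 and 0 by DESeq2. The summed level of the oogenic markers, in counts per 1000000 of scaled library size (CPM), was 75.9 to 116 in glp-1, 80.2 to 125 in the mg54 double and 78.5 to 116 in the mu86 double. Of 4 embryo markers tested, 1 rose in glp-1, sdz-24 (log2 difference 1.85, adjusted p = 0.000136). The other 3 had estimates below 0, down to −0.55, and did not pass, and the median of the 4 was −0.31. The glp-1 transcript itself was 17.3 ± 2.35 CPM (SD, n = 5) in glp-1, 16.8 ± 1.36 with mg54 and 14.1 ± 1.58 with mu86, and glp-1 did not differ from the mean of the doubles by more than the spread between libraries (adjusted p = 0.403). In whole animals, fewer cells of a type and less RNA per cell cannot be told apart.

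Of the 15 libraries, 1 in each strain lay far along the first principal component. These 3 are called the ones that stood apart. By mean correlation with its own strain, only mu86 double replicate 3 fell below the set limit (0.956, limit 0.958). glp-1 replicate 0 and mg54 double replicate 2 were at 0.963 and 0.967. The first principal component of all tested entries held 31% of the variance and put glp-1 replicate 0 at −62.6, mg54 double replicate 2 at −34.8 and mu86 double replicate 3 at −43.5, while the other glp-1 libraries lay between −17.1 and 1.7 and the other doubles lay above these, at up to 28.7. Compared with the other libraries of their own strain, the median collagen entry was lower in these 3 by 0.74, 0.76 and 1.2 on the log2(CPM + 1) scale, and the median pharynx marker by 1.37, 1.15 and 1.82. The second component, with 19.4% of the variance, also grouped libraries across strains. glp-1 replicate 1, mg54 double replicate 1 and mu86 double replicate 2 lay at 34.4, 35.8 and 24.8. glp-1 replicates 2 and 3, mg54 double replicate 4 and mu86 double replicate 0 lay from −24.6 to −30.7. The part these groupings play in the results below was not tested. Each count that leads a paragraph is also given without the 3 libraries that stood apart where it moved by more than 1.5 times.

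**Figure D1:**
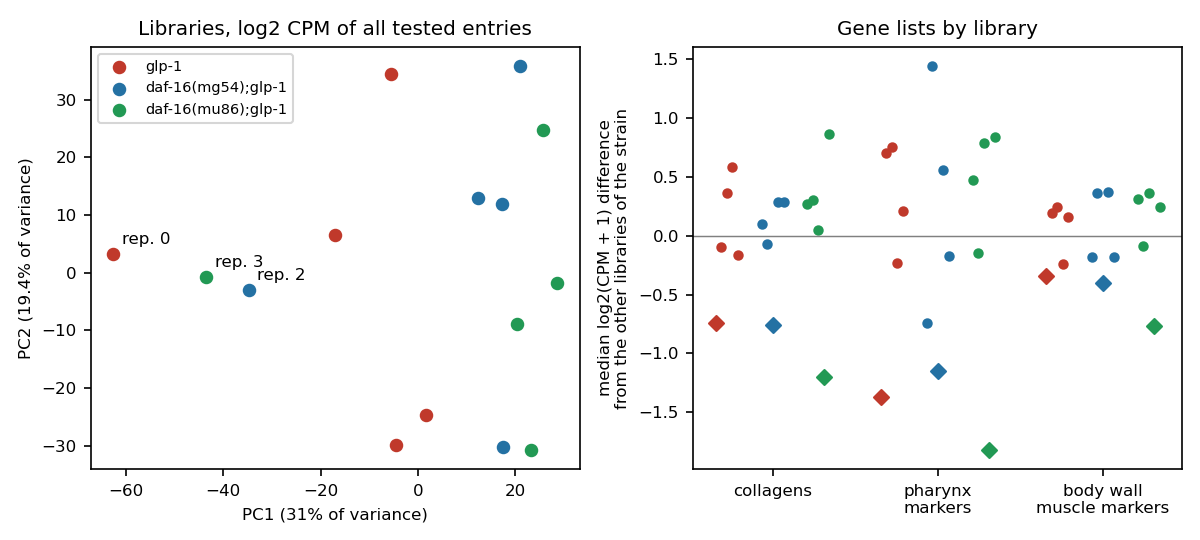
The left panel plots the first and second principal components of the 15 libraries (scores without units, 1 point per library, coloured by strain), and the right panel plots, for 3 gene lists, the median log2(CPM + 1) difference of each library from the others of its strain. The 3 libraries at −62.6, −43.5 and −34.8 on the first component, drawn as diamonds on the right, have low collagen and pharynx values.

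The daf-16 gene (chromosome I, 10750403 to 10776748 on ce10) was examined first, because its alleles define the groups. Its transcript stood at 198, 226, 195, 142 and 253 CPM in the 5 glp-1 libraries, at 118.6, 230, 134, 187 and 132 with mg54, and at 417, 377, 505, 417 and 448 with mu86. The mu86 libraries lie above all others, and the glp-1 and mg54 libraries overlap. The log2 difference of glp-1 from the mg54 double was 0.34 ± 0.18 (SE) and did not pass (adjusted p = 0.416, edgeR's quasi-likelihood test with Benjamini-Hochberg adjustment, as for every adjusted p below). From the mu86 double it was −1.09 ± 0.18 (adjusted p = 0.00399). The total over this gene therefore does not check the mg54 label.

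The entry H36N01.2,H36N01.3,R13H8.4, which joins 3 non-coding RNA genes at the daf-16 locus, marked the mu86 libraries. It was at 0.785, 0.744, 0.812, 0.344 and 0.758 CPM in glp-1 and at 0.714, 0.515, 0.737, 0.707 and 0.588 with mg54. In the mu86 double it was at 342, 278, 276, 275 and 211 CPM. No mu86 library comes near any other library. The mg54 double minus the mu86 double was −8.71 ± 0.21 on the log2 scale (adjusted p = 3.41e-13). Strand was not given, so reads of overlapping genes at this locus cannot be told apart.

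Few entries separated the doubles from each other. Between them, 2 of 10391 entries (0.0192%) passed an adjusted p of 0.05, and these were daf-16 and the non-coding entry at its locus, both lower with mg54. At an unadjusted p of 0.05 the count was 439, and DESeq2 called 21. The count was 5 without glp-1 replicate 0 and 4 without mg54 double replicate 2. Without the 3 libraries that stood apart it was also 4, but daf-16 itself no longer passed (−1.39, adjusted p = 0.0608). The doubles are therefore averaged in the main comparison below, and values against each allele are also given for some genes.

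Against the mean of both doubles, 522 of 10391 entries (5.02%) passed. Of these, 354 (3.41% of those tested) were higher in glp-1 and 168 (1.62%) were lower. The higher entries had a median log2 difference of 0.69, with quartiles of 0.48 and 1.13, and the lower entries a median of −0.59, with quartiles of −0.91 and −0.34. The median over all tested entries was −0.01. A difference of at least 2-fold by estimate was reached by 106 of the higher and 35 of the lower entries. In 155 of the higher and 67 of the lower ones, no glp-1 library overlapped any of the 10 double libraries. Over all tested entries this held for 160 (1.54%) and 74 (0.712%), so most entries without overlap are ones that passed. The test and the overlap use the same libraries, so neither is separate evidence for the other.

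The count depended on single libraries. It was 319 without glp-1 replicate 0, 331 without glp-1 replicate 4 and 841 without mu86 double replicate 3. Without the 3 libraries that stood apart it was 915 of 10430, with 567 higher and 348 lower, and 458 of the 522 were among them. Counts of gene lists given below without these libraries belong beside this larger total. The count was also not the same for each allele. Taken alone, with the same 5 glp-1 libraries in both comparisons, 316 entries (3.04%) passed against mg54, 245 higher (2.36%) and 71 lower (0.683%), and 322 (3.1%) against mu86, 205 higher (1.97%) and 117 lower (1.13%). These counts were 551 and 670 without the 3 libraries. The mg54 count was 162, 174 and 208 without mg54 double replicates 0, 3 and 1, and 181, 191 and 199 without glp-1 replicates 0, 2 and 4. The mu86 count was 190, 196, 204 and 586 without mu86 double replicates 4, 1, 2 and 3, and 200 without glp-1 replicate 0. Of the 354 higher entries, 236 passed against mg54, 197 against mu86 and 158 against each. Of the 168 lower entries the corresponding numbers were 61, 103 and 43.

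**Figure D2:**
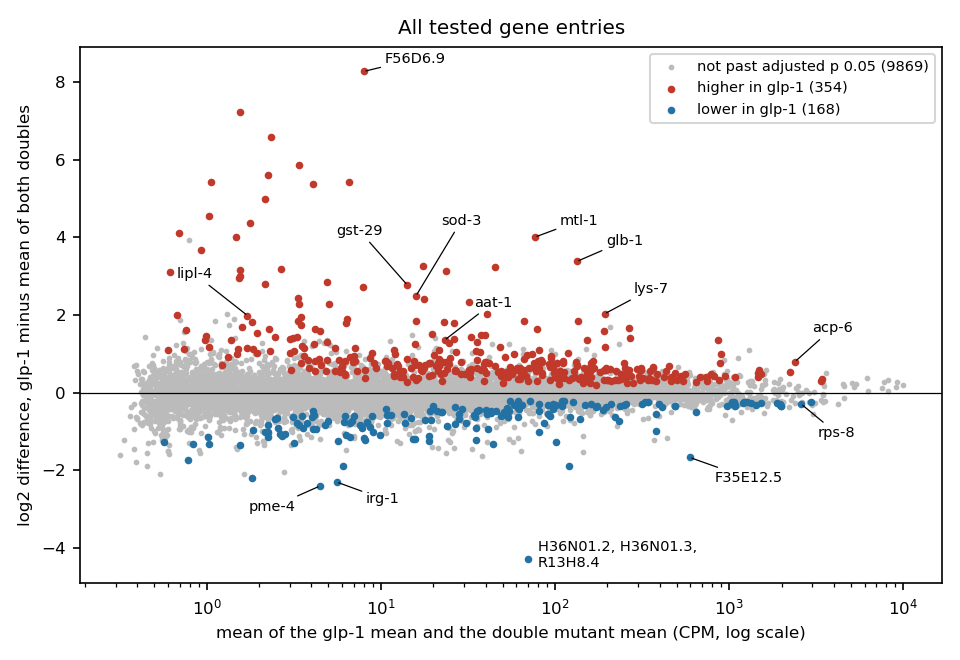
Log2 difference of glp-1 from the mean of both doubles (vertical axis) against the mean level in CPM on a log axis (horizontal axis), with 1 point per tested entry. The 354 higher entries are red, the 168 lower entries are blue and the rest are grey, and the higher ones reach further from 0.

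Class I DAF-16 genes, which earlier work on daf-2 mutants describes as switched on by DAF-16, were higher in glp-1. Of 20 tested, 11 rose and 0 fell, against 5.02% of all entries passing in either direction. Their median log2 difference was 1.12, and all 20 estimates were above 0. The count was 13 without the 3 libraries that stood apart, and 9 to 14 when any single library was left out.

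The mitochondrial superoxide dismutase gene sod-3 (chromosome X, 17087808 to 17094023) is the classic reporter of DAF-16 activity. It stood at 35, 34.8, 19.9, 23.5 and 22.1 CPM in glp-1, at 4.57, 4.81, 4.31, 4.83 and 3.82 with mg54, and at 3.26, 5.52, 6.99, 5.12 and 4.77 with mu86. Every glp-1 library lies above every double library. The difference was 2.49 ± 0.16 (adjusted p = 2.24e-07).

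mtl-1 (chromosome V, 6691282 to 6691943) encodes a metallothionein, a small metal-binding protein. Its levels were 305, 121, 86.8, 105 and 106 CPM in glp-1, 10.9, 10.2, 17.6, 7.01 and 6.34 with mg54, and 4.82, 5.74, 6.34, 18.2 and 3.37 with mu86. The groups do not overlap, and the highest library of glp-1 and the highest of each double are the 3 that stood apart. The difference was 4.01 ± 0.38 (adjusted p = 1.44e-05).

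The lysozyme gene lys-7 (chromosome V, 3481478 to 3482596) acts in defence against bacteria. It was at 518, 302, 257, 136 and 337 CPM in glp-1, at 48.1, 72.5, 85.7, 80.2 and 40.4 with mg54, and at 70.3, 55.5, 74.3, 133 and 105 with mu86. The lowest glp-1 library is only just above the highest double library, and the difference was 2.03 ± 0.26 (adjusted p = 0.000264). The small heat shock gene hsp-12.6 rose by 1.45 ± 0.24 (adjusted p = 0.00205), from 1.32 CPM in the doubles to 3.59 CPM. aakg-4, a regulatory gamma subunit of the energy sensor AMPK, rose by 0.79 ± 0.09 (adjusted p = 0.000111).

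The iron-storage gene ftn-1 (chromosome V, 7546526 to 7547544) rose against the mean of the doubles, but the doubles stood at unequal levels. It was at 57.3, 29.4, 40.5, 33.4 and 38.9 CPM in glp-1, at 4.14, 2.52, 7.49, 4.53 and 14.6 with mg54, and at 31.8, 15.3, 7.10, 27.8 and 15.1 with mu86. All glp-1 libraries are above the mg54 libraries, and they overlap those of mu86. The difference was 2.57 against mg54 (adjusted p = 0.00555) and 1.04 against mu86 (adjusted p = 0.253), and 1.81 ± 0.36 against the mean of both (adjusted p = 0.0075). With the 10 doubles treated as 1 group the adjusted p was 0.0559.

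The rest of the class I genes that passed were the catalase entry ctl-1,ctl-2 (0.62), dod-3 (1.64), the linker histone gene hil-1 (0.57), the small heat shock gene hsp-12.3 (0.91) and pck-1, described below. Estimates for the 9 that did not pass ran from 0.16 for lea-1 to 1.41 for hsp-16.2 (adjusted p = 0.562 and 0.0572). The hsp-12.3 call was lost without glp-1 replicate 0 (adjusted p = 0.061) and without glp-1 replicate 2 (adjusted p = 0.0603). Of 7 class II genes tested, which fall with DAF-16 activity in daf-2 mutants, 1 fell (14.3%, against 5.02% of all entries passing). It was dod-17 (−0.78 ± 0.15, adjusted p = 0.00746), and the median of the 7 was −0.60. Of these, 3 fell without the 3 libraries that stood apart.

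**Figure D3:**
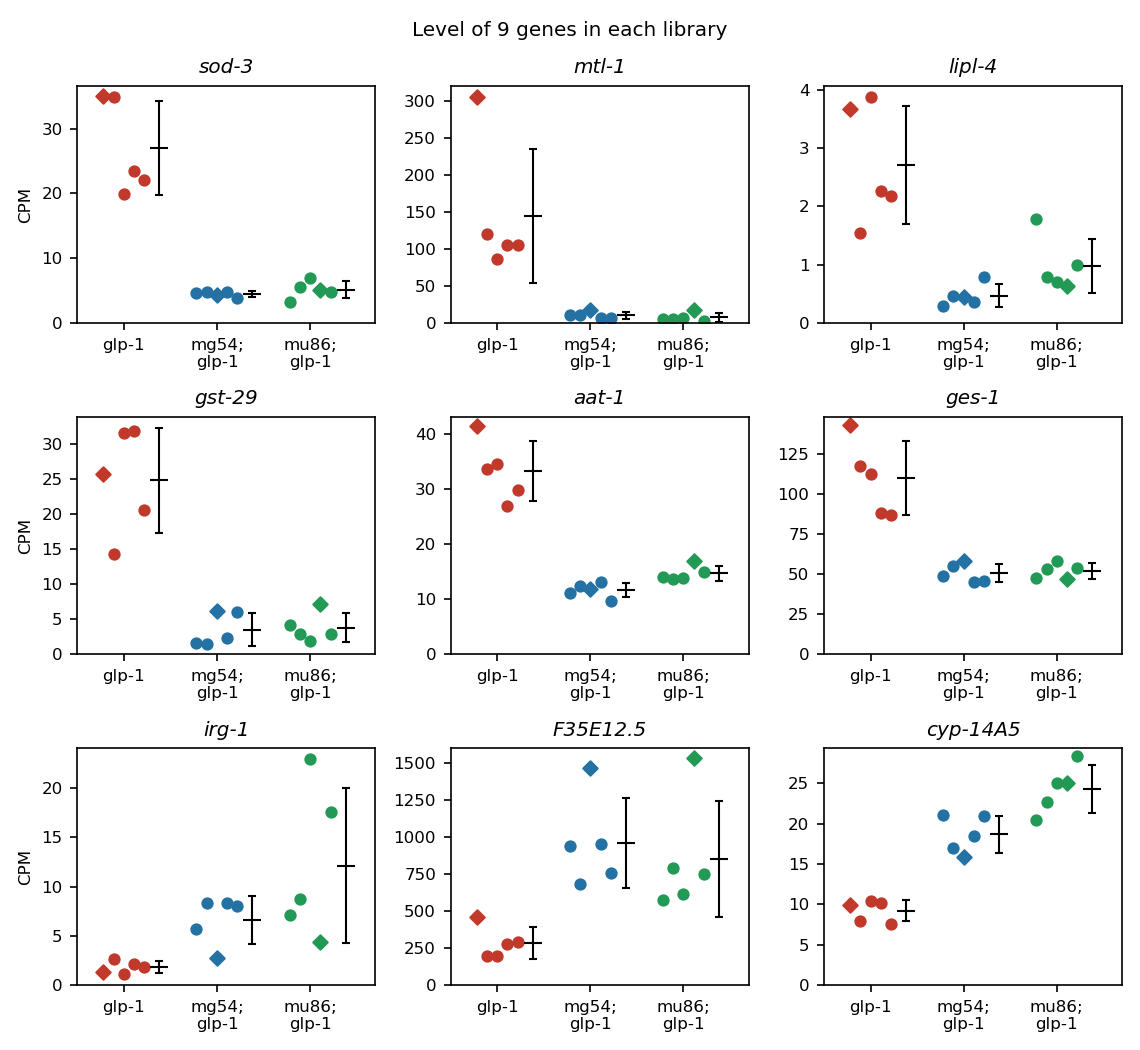
Level of 9 genes in each library, in CPM on a linear axis from 0, with 1 point per library, diamonds for the 3 libraries that stood apart, and bars for the mean ± SD of 5 libraries. The groups do not overlap in 8 of the 9 genes, and for lipl-4 the highest mu86 library, at 1.78 CPM, exceeds the lowest glp-1 library, at 1.55.

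The highest differences belonged to genes of little-known function that were nearly silent without daf-16. F56D6.9 (chromosome IV) had 1311 fragments over the 5 glp-1 libraries, 8 with mg54 and 2 with mu86. Per library it was at 52.5, 0.992, 11.5, 6.39 and 8.29 CPM in glp-1, at 0, 0, 0.0567, 0.353 and 0.042 with mg54, and at 0, 0.0441, 0, 0.0533 and 0 with mu86. The glp-1 libraries span a wide range among themselves. They do not overlap the doubles, but this was required of the 12 highest genes named here. Those were picked by size of difference among single-gene entries that passed without overlap, with at least 1 CPM on the higher side. Its ratio of pooled fragments, each scaled to the strain's total, was 277, with an exact 95% interval of 150 to 579 that covers counting error only. Ratios here and below come from the same libraries by which the genes were picked.

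Listed with the same span, dct-8, named as a DAF-16-controlled gene that affects germline tumours, had 668 glp-1 fragments, 23 with mg54 and 13 with mu86, a ratio of 39.2 (28 to 56.4). Another entry of the same stretch of chromosome IV, F56D6.8, had 561, 24 and 4. The table gives these 3 entries 1 wide shared span, 3385605 to 4079619, which it also gives clec-74. Fragments of 1 could therefore have been assigned to another. dct-8 was at 21.7, 0.868, 8.53, 5.36 and 3.34 CPM in glp-1 and at most 0.588 CPM in any double, and like F56D6.9 it was highest in replicate 0 and lowest in replicate 1.

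F17B5.1 (chromosome I) varied less across glp-1 libraries than F56D6.9 and dct-8, at 4.78, 4.21, 6.85, 3.69 and 3.49 CPM. It was at 0, 0.172, 0, 0.177 and 0.252 CPM with mg54 and at 0.0582 CPM in 1 mu86 library and 0 in the other 4. Its pooled counts were 403, 12 and 1 fragments. C08F11.3 (chromosome IV, 13619490 to 13621489) was similarly even, at 4.58, 2.98, 2.73, 2.56 and 4.1 CPM in glp-1 against 0.113 to 0.343 with mg54 and 0.0441 to 0.160 with mu86. Its difference of 4.36 ± 0.24 had an adjusted p of 2.64e-08.

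scl-20 (chromosome V, 18732768 to 18734438), of the secreted SCP/CAP family, had 253 fragments in glp-1, 5 with mg54 and 0 with mu86. Its glp-1 libraries were at 10.5, 0.682, 0.638, 1.03 and 2.53 CPM, so replicate 0 weighs most in that sum. With the mu86 0 replaced by 3 fragments over the 5 libraries, the pooled glp-1 level was 86-fold higher. That value allows for counting error only, not for the spread between libraries. T23F4.3, for which the name table gives dlhd-1, had 1068, 35 and 21 fragments. The F-box gene fbxb-7 had 183, 5 and 3, and the pseudogene Y6G8.9 had 384, 12 and 5. Both are listed with 1 wide span, 16966182 to 17732569 on chromosome V. R05H10.7, H39E23.3 and F49C5.9 completed the 12 highest, with pooled ratios of 32.5, 24.1 and 18.7.

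Among single-gene entries that passed, the 6 largest gains in mean CPM were those of acp-6, the collagen gene col-103, Y39B6A.1, pck-2, ilys-5 and C30G12.2. acp-6, of the acid phosphatase family, rose from a mean of 1747 CPM in the doubles to 3035 ± 716 CPM (SD, n = 5), a difference of 0.80 ± 0.17 (adjusted p = 0.0118). Y39B6A.1 (chromosome V, 19200905 to 19203658) was at 752, 1605, 1485, 1114 and 1216 CPM in glp-1 against 334 to 575 with mg54 and 442 to 691 with mu86. The groups do not overlap, and its difference was 1.37 ± 0.17 (adjusted p = 0.000192). col-103 stood at 3829 ± 310 CPM in glp-1, 3337 ± 185 with mg54 and 2753 ± 311 with mu86 (SD, n = 5), and rose by 0.34 ± 0.08 (adjusted p = 0.0188). C30G12.2 stood at 1187 ± 272, 547 ± 221 and 656 ± 194 CPM and rose by 0.99 ± 0.23 (adjusted p = 0.0188). Libraries of glp-1 and the doubles overlap for both genes. The call on col-103 was lost without glp-1 replicate 0 or 2 (adjusted p = 0.0621 and 0.0698), and that on C30G12.2 without glp-1 replicate 0, 1 or 4 (0.0515, 0.0519 and 0.0607). pck-2 and ilys-5 are described with their groups below.

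The globin gene glb-1 (chromosome III, 8920019 to 8925178), whose product binds oxygen, was at 571, 196, 123, 121 and 209 CPM in glp-1, and at 16.18 to 35.7 with mg54 and 14.2 to 55.5 with mu86. Its difference was 3.38 ± 0.38 (adjusted p = 8e-05). It was the 1 of 23 tested globin genes that passed (4.35%, against 5.02% of all entries).

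Fat is the main store that germline-less worms build up, so genes of fat release and oxidation were described as groups. Of 5 lysosomal lipase genes tested, 3 rose and 0 fell (60% passing, against 5.02% of all entries). Their median was 0.69, and 2 to 3 rose when single libraries were left out. lipl-4 (chromosome V, 6550056 to 6551781), whose lysosomal lipase extends life when raised in the intestine, was at 3.67, 1.55, 3.89, 2.26 and 2.17 CPM in glp-1. It was at 0.285, 0.458, 0.454, 0.353 and 0.798 with mg54, and at 1.78, 0.794, 0.705, 0.640 and 0.989 with mu86. The glp-1 libraries lie above all mg54 libraries, while 1 mu86 library exceeds the lowest glp-1 one. The difference was 1.99 ± 0.28 (adjusted p = 0.000649), or 2.49 against mg54 and 1.48 against mu86.

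lipl-5 (chromosome V, 385753 to 387712) was at 1730 ± 190 CPM in glp-1, 1296 ± 65.7 with mg54 and 1129 ± 161 with mu86 (SD, n = 5), and rose by 0.52 ± 0.09 (adjusted p = 0.00231) with no overlap of libraries. lipl-2 also passed (1.38 ± 0.37, adjusted p = 0.0422), but leaving out any of 12 libraries took it past 0.05, with 0.957 and an adjusted p of 0.199 without glp-1 replicate 0. lipl-6 had an estimate of 0.69 and lipl-1 one of −0.66, and neither passed (adjusted p = 0.191 and 0.4).

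Of 15 fatty acid oxidation genes tested, 6 rose and 0 fell (40% passing, against 5.02% of all entries), with a median of 0.32. hacd-1, a hydroxyacyl-CoA dehydrogenase on chromosome V, was at 681, 694, 639, 571 and 675 CPM in glp-1, at 508, 492, 461, 513 and 442 with mg54, and at 407, 491, 450, 492 and 411 with mu86. The groups do not overlap, and it rose by 0.48 ± 0.07 (adjusted p = 0.000766). The enoyl-CoA hydratase genes ech-1 (1.01), ech-7 (0.59) and ech-4 (0.34), the peroxisomal enzyme gene dhs-28 (0.32) and the acyl-CoA dehydrogenase gene acdh-12 (0.39) also rose. For ech-7 the difference was 0.31 against mg54, whose libraries overlap those of glp-1 (adjusted p = 0.378), and 0.86 against mu86 (adjusted p = 0.00674). Without glp-1 replicate 4 the count was 3, and ech-7 was then at 0.48 (adjusted p = 0.0616). The 5 tested cpt genes, of the carnitine palmitoyltransferase family that moves fatty acids into mitochondria, had estimates from −0.31 (cpt-5) to 0.30 (cpt-3), and 0 of them passed.

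Genes of fat making were mixed. fat-7 (chromosome V, 7151428 to 7153112), a stearoyl-CoA desaturase needed for the long life of germline-less worms, differed between the doubles. It was at 38.6, 107, 116, 66.5 and 107 CPM in glp-1, at 29.6, 32.2, 15.2, 32.5 and 21.2 with mg54, and at 100, 81.5, 71.5, 60.6 and 70.4 with mu86. The mg54 libraries lie below all glp-1 libraries, and the mu86 libraries lie within the glp-1 range. The difference was 1.73 against mg54 (adjusted p = 0.00279) and 0.18 against mu86 (adjusted p = 0.843), but the doubles themselves did not differ past the threshold (−1.56, adjusted p = 0.125). Against the mean of both, fat-7 rose by 0.96 ± 0.23 (adjusted p = 0.0229), and the adjusted p was 0.0578, 0.0856 and 0.0722 without glp-1 replicates 1, 2 and 4. fat-3, another desaturase, fell by 0.37 (adjusted p = 0.029), and the call on fat-3 was lost without any 1 of 6 libraries, with an adjusted p of 0.105 without glp-1 replicate 0. Of the 13 desaturases and elongases tested, these were the 2 that passed (15.4%, against 5.02% of all entries). Of 11 genes of fat storage and release, 1 rose (9.09%), acl-5 (0.35, adjusted p = 0.00673). The fatty acid synthase gene fasn-1 had an estimate of −0.01 (adjusted p = 0.991).

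Genes of sugar metabolism that passed were all higher in glp-1. Of 19 genes of the glyoxylate shunt, gluconeogenesis and glycolysis, 8 rose and 0 fell (42.1% passing, against 5.02% of all entries). Their median was 0.21. enol-1 (enolase, chromosome II, 8930941 to 8933550) was at 1345, 1341, 1271, 1159 and 1069 CPM in glp-1, against 892 to 1022 with mg54 and 810 to 990 with mu86. Every glp-1 library lies above every double, and the difference was 0.41 ± 0.07 (adjusted p = 0.00287). pyk-2 (pyruvate kinase) rose by 0.38 ± 0.07 (adjusted p = 0.00352), also with no overlap.

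pck-1 (chromosome III), 1 of the worm's phosphoenolpyruvate carboxykinases, the enzymes that commit carbon to gluconeogenesis, varied more. It was at 651, 356, 398, 152 and 407 CPM in glp-1, at 79.1, 166, 136, 207 and 109 with mg54, and at 179, 79.8, 158, 152 and 210 with mu86. Replicate 3 of glp-1 lies among the doubles, and the difference was 1.42 ± 0.28 (adjusted p = 0.00767). The others that rose were fbp-1 (fructose-bisphosphatase, 0.50), aldo-2 (aldolase, 0.41), pck-2 (0.29), F57B10.3 (0.29), named ipgm-1 in the name table, and Y71H10A.1 (0.33), named pfk-1.1. icl-1, the glyoxylate shunt enzyme, had an estimate of 1.1 ± 0.34 and did not pass (adjusted p = 0.0783). The call on fbp-1 was lost without glp-1 replicate 0 or 4 (adjusted p = 0.069 and 0.0521), and that on pck-2 without any 1 of 11 libraries (at most 0.148). The count of 8 fell to 3 without glp-1 replicate 0, to 4 without glp-1 replicate 2, and to 5 without glp-1 replicate 1, mg54 double replicate 0 or mu86 double replicate 1.

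Among regulators that act beside DAF-16 in germline-less worms and their known targets, lipl-4 alone passed. Of 22 tested, 1 rose and 0 fell (4.55%, against 5.02% of all entries), and the median was 0.01. The elongation factor homologue tcer-1 was at 52.5 CPM in glp-1, 57.9 with mg54 and 59.5 with mu86 (adjusted p = 0.459). The nuclear receptor genes nhr-49, nhr-80 and daf-12 had estimates of 0.15, 0.12 and 0.03 (adjusted p = 0.216, 0.414 and 0.945). kri-1, an ankyrin-repeat protein gene of the intestine, stood at 0.16 (adjusted p = 0.84), and lbp-8, a lysosomal lipid chaperone that carries a signal from LIPL-4, at 0.86 (adjusted p = 0.0609). Of 6 insulin pathway genes, 1 rose (16.7%), the 14-3-3 gene ftt-2 (0.41, adjusted p = 0.013). The adjusted p of ftt-2 was 0.0574 without glp-1 replicate 2. Of 14 insulin-like peptide genes, 1 rose (7.14%), ins-27 (0.69, adjusted p = 0.00334).

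Some protective genes rose. Of 12 genes of metal handling, 4 rose and 0 fell (33.3% passing, against 5.02% of all entries). These were mtl-1, ftn-1, the cadmium-responsive gene cdr-2 (1.31) and the entry cdr-4,cdr-6 (0.45). The last call was lost without any 1 of 6 libraries (adjusted p at most 0.0918). Of 16 antioxidant genes, 2 rose (12.5%, against 5.02% of all entries), sod-3 and ctl-1,ctl-2. Among 7 small heat shock genes, 2 rose (28.6%), and among 14 large chaperones 1 did (7.14%, against 5.02% of all entries), hsp-70. That gene was at 111, 26.2, 94.0, 6.59 and 32.2 CPM in glp-1 and at 5.47 to 26.7 in the doubles, with a difference of 2.34 ± 0.50 (adjusted p = 0.0129), and 1.91 without glp-1 replicate 0 (adjusted p = 0.0588).

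The glutathione S-transferases and cytochrome P450 enzymes, which modify foreign compounds, moved in both directions. Of 34 glutathione S-transferase genes, 4 rose and 1 fell (14.7% passing, against 5.02% of all entries). gst-29 (chromosome II, 15168517 to 15169773) was at 25.7, 14.3, 31.6, 31.8 and 20.5 CPM in glp-1, at 1.52, 1.43, 6.12, 2.3 and 6 with mg54, and at 4.15, 2.82, 1.79, 7.15 and 2.91 with mu86. The groups do not overlap, and the difference was 2.77 ± 0.36 (adjusted p = 0.000246). gst-38 fell by 1.23 on the log2 scale (adjusted p = 0.00142). Of 35 P450 entries, 5 rose and 2 fell (20% passing). The entry cyp-35B1,cyp-35B3 rose by 2.73 (adjusted p = 0.00033), while cyp-14A5 (chromosome V, 5421001 to 5425513) was at 7.58 to 10.4 CPM in glp-1 against 15.9 to 21.1 with mg54 and 20.5 to 28.3 with mu86, a difference of −1.21 ± 0.12 (adjusted p = 1.44e-05). Of 42 UDP-glucuronosyltransferase entries, 2 fell, ugt-30 (−0.91) and ugt-29 (−0.62). That is 4.76%, near the 5.02% of all entries that passed.

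These counts also moved with single libraries. The 4 higher glutathione S-transferases became 2 without any 1 of 8 libraries, namely glp-1 replicates 1, 3 and 4, mg54 double replicates 0, 1 and 4, and mu86 double replicates 1 and 4, and 7 without the 3 libraries that stood apart. The 5 higher P450 entries became 3 without glp-1 replicate 2, and 9 both without mu86 double replicate 3 and without the 3 libraries. Without the 3 libraries, 5 UDP-glucuronosyltransferase entries fell and 3 rose. Over all 10430 entries then tested, 567 rose and 348 fell.

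Secreted and gut proteins followed. Of 22 lysozyme and saposin-like genes, 5 rose and 0 fell (22.7% passing, against 5.02% of all entries), with a median of 0.35. Besides lys-7 these were lys-8 (0.39), spp-2 (1.85 ± 0.28, adjusted p = 0.001), spp-4 (0.50) and the invertebrate-type lysozyme gene ilys-5. ilys-5 (chromosome X, 6533512 to 6536740) was at 1622 to 1908 CPM in glp-1, 1050 to 1431 with mg54 and 1051 to 1495 with mu86, with no overlap (0.58 ± 0.09, adjusted p = 0.00135). The adjusted p of lys-8 was 0.0728 and 0.0553 without glp-1 replicates 0 and 2. The count was 3 without glp-1 replicate 2, 8 without mu86 double replicate 3, and 10 without the 3 libraries that stood apart. Of 35 transthyretin-related genes, which encode small secreted proteins, 7 rose and 0 fell (20% passing), led by ttr-5 (0.79 ± 0.13, adjusted p = 0.00191). That count was 3 without glp-1 replicate 0, 3 without glp-1 replicate 4, and 11 without the 3 libraries.

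ges-1 and aat-1 rose with little spread between libraries. ges-1, the gut esterase on chromosome V whose span in the table is shared with hacd-1, was at 143, 118, 113, 88.5 and 87.3 CPM in glp-1, at 45.3 to 58.1 with mg54 and at 46.8 to 58.5 with mu86. It rose by 1.1 ± 0.11 (adjusted p = 2.4e-05) and was the 1 of 11 tested intestine markers that passed (9.09%, against 5.02% of all entries). aat-1, an amino acid transporter gene (chromosome IV, 9599137 to 9601677), was at 41.6, 33.7, 34.6, 27 and 29.9 CPM in glp-1, against 9.66 to 13.1 with mg54 and 13.7 to 16.9 with mu86. The groups do not overlap for either gene, and aat-1 rose by 1.35 ± 0.10 (adjusted p = 1.01e-06).

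**Figure D4:**
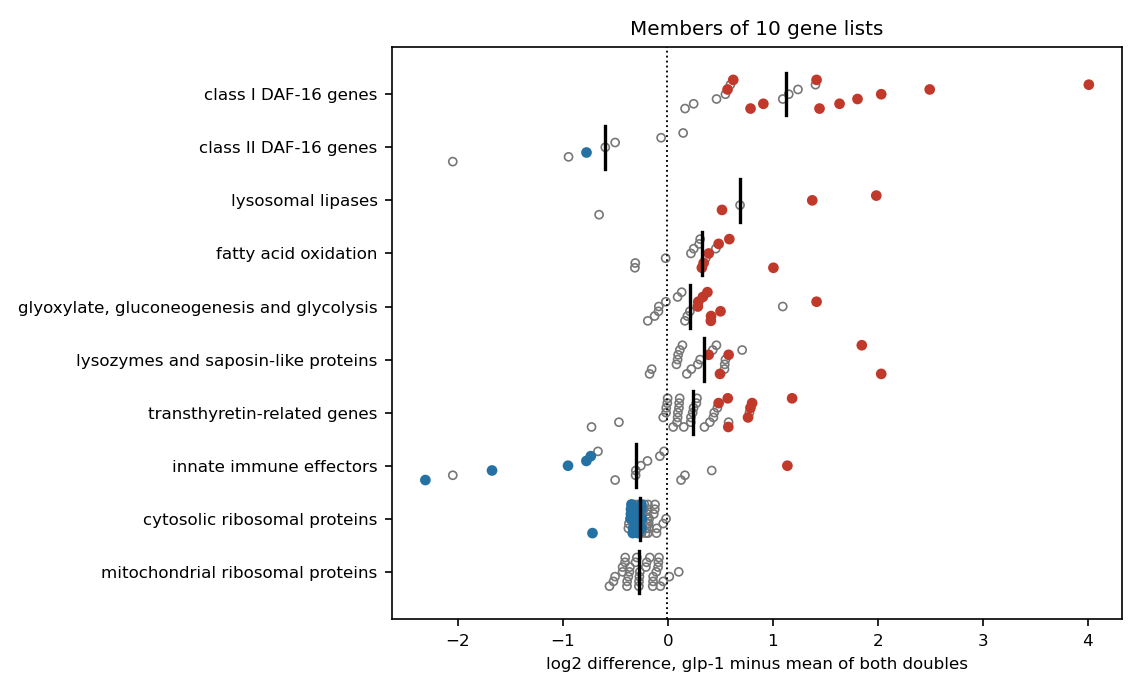
Log2 difference of glp-1 from the mean of both doubles for each tested member of 10 gene lists, filled red (higher) or blue (lower) where the entry passed and open where it did not, with a bar at the median of each list and a dotted line at the median of all entries, −0.01. All 20 class I genes lie above 0, and all 60 cytosolic ribosomal protein genes lie below it.

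Several genes of the response to infection fell. Of 18 innate immune effectors tested, 5 fell and 1 rose, against 1.62% of all entries that fell and 3.41% that rose. Their median was −0.31, and 4 to 6 fell when single libraries were left out. F35E12.5 (chromosome V, 13736988 to 13741244), listed as the infection response gene irg-5 in the name table, was at 460, 198, 194, 278 and 288 CPM in glp-1. It was at 942, 686, 1464, 950 and 759 CPM with mg54 and at 571, 794, 618, 1534 and 748 with mu86. All glp-1 libraries lie below all doubles, and the difference was −1.67 ± 0.28 (adjusted p = 0.00234). irg-1 (chromosome V, 3523591 to 3524572), which rises when a pathogen blocks translation, was at 1.31, 2.60, 1.16, 2.11 and 1.82 CPM in glp-1, at 5.71, 8.35, 2.72, 8.36 and 8.02 with mg54, and at 7.12, 8.69, 23, 4.32 and 17.6 with mu86. Here too the groups do not overlap, and the lowest library of each strain of doubles is the one that stood apart. The difference was −2.31 ± 0.41 (adjusted p = 0.00358). F55G11.2 (−0.95 ± 0.12, adjusted p = 0.000204), F08G5.6 (−0.73), named irg-4 in the name table, and dod-17 also fell. F55G11.2 and dod-17 are listed with 1 shared span, so fragments of 1 could have been assigned to the other. The entry abf-1,abf-2, of antibacterial peptides, rose (1.14, adjusted p = 0.00331). dod-24 had an estimate of −0.50 (adjusted p = 0.113).

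pme-4 (chromosome IV, 8712397 to 8715115) had the lowest difference among genes whose libraries do not overlap. It encodes a poly(ADP-ribose) glycohydrolase, which removes chains that DNA repair signalling puts on proteins. Its level was 1.05, 1.61, 1.39, 1.82 and 1.01 CPM in glp-1, 6.09, 6.87, 4.76, 6.12 and 5.79 with mg54, and 5.93, 7.5, 11.22, 8.75 and 12.4 with mu86. The difference was −2.41 ± 0.21 (adjusted p = 4.17e-06). The others of the 12 lowest included M01G12.9 (−1.13), the ABC transporter gene pgp-8 (−1.1 ± 0.13, adjusted p = 8e-05) and F31F7.1, which fell from 465 CPM with mg54 and 546 CPM with mu86 to 254 CPM. The neighbouring transporter entry pgp-5,pgp-6,pgp-7 fell by 1.90 on the log2 scale (adjusted p = 0.00398).

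Part of the cytosolic ribosomal protein genes, which encode the parts of the ribosome, fell by a small amount. Of 60 tested, 21 fell and 0 rose, against 1.62% of all entries that fell, with estimates from −0.72 to −0.02 and a median of −0.26. The summed level of the list was 55700, 59100, 62400, 67900 and 59600 CPM in glp-1, 73000, 66000, 70900, 73400 and 77500 with mg54, and 79000, 72400, 67500, 68100 and 71300 with mu86. Replicate 3 of glp-1 lies within the range of the doubles, and the other 4 lie below it. As an example, rpl-6 (chromosome III, 7208393 to 7209693) was at 1535, 1767, 1705, 1963 and 1703 CPM in glp-1, at 1979 to 2348 with mg54 and at 1994 to 2344 with mu86. The difference was −0.32 ± 0.07 (adjusted p = 0.0144), and −0.27 without glp-1 replicate 0 (adjusted p = 0.0525).

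The number of ribosomal protein genes past the threshold rested on single libraries far more than the sizes did. It was 1 without glp-1 replicate 0, 3 without replicate 4, 7 without replicate 1 and 8 without replicate 2 of glp-1. It was 8 without replicate 0 or 3 and 9 without replicate 4 of the mg54 double, and 11, 10 and 9 without replicates 0, 1 and 4 of the mu86 double. Without the 3 libraries that stood apart it was 21, and in a fit with the replicate number as a block it was 1. Of 32 mitochondrial ribosomal protein genes 0 passed in edgeR, with a median of −0.27 and 30 estimates below 0, but 12 had an unadjusted p under 0.05 and DESeq2 called 3. Of 18 translation factors 1 fell (5.56%, against 5.02% of all entries passing in either direction), iff-1, an eIF5A gene that the germline needs. iff-1 was at 1.18, 3.84, 2.5, 2.7 and 2.68 CPM in glp-1, at 7.76, 12.5, 2.44, 9.13 and 12.8 with mg54, and at 6.67, 10.2, 19.2, 3.15 and 12.22 with mu86. The doubles that overlap glp-1 are the 2 that stood apart, and the difference was −1.89 ± 0.44 (adjusted p = 0.0194). The adjusted p of iff-1 was 0.0634, 0.0531 and 0.0554 without glp-1 replicates 0, 2 and 4.

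Groups of protein turnover and energy supply held few or no entries that passed. In edgeR 0 of 18 proteasome entries, 0 of 18 respiratory chain entries, 0 of 25 lysosomal protease and V-ATPase entries and 0 of 8 entries of trehalose and glycerol making did. At an unadjusted p under 0.05 there were 1, 2, 1 and 2 of them, and DESeq2 called 0, 1, 0 and 0. Of 17 autophagy and TOR genes, 1 rose (5.88%, against 5.02% of all entries), bec-1, which encodes Beclin. bec-1 was at 76.2, 35.6, 61.6, 52.0 and 54.4 CPM in glp-1, 27.3 to 45.3 with mg54 and 28.7 to 47.9 with mu86, a difference of 0.69 ± 0.17 (adjusted p = 0.0312). The adjusted p of bec-1 was above 0.05 without any 1 of 11 libraries, at most 0.123, without glp-1 replicate 0.

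Tissue markers were read beside these groups. Of 21 body wall muscle, 7 pharynx, 23 neuron, and 10 somatic gonad and uterus markers tested, 0 passed in edgeR. At an unadjusted p under 0.05 there were 0, 0, 1 and 2, and DESeq2 called 0, 0, 0 and 1. Of 19 hypodermis markers, 3 fell and 0 rose (15.8% passing, against 5.02% of all entries), with a median of −0.28. They were qua-1 (−0.80 ± 0.15, adjusted p = 0.00552), mlt-10 (−1.13, adjusted p = 0.017) and mlt-11 (−0.95, adjusted p = 0.0396). qua-1 and mlt-10 act in moulting. The call on mlt-10 was lost without glp-1 replicate 4 (adjusted p = 0.059) and that on mlt-11 without any 1 of 11 libraries (at most 0.115). The hypodermis count was 1 without glp-1 replicate 4, 5 without mu86 double replicate 3 and 6 without the 3 libraries that stood apart. Of 106 collagens, 3 rose and 1 fell (3.77% passing, against 5.02% of all entries), with a median of −0.55. Without the 3 libraries 9 rose and 27 fell, when 567 and 348 of all 10430 entries did. The collagens that rose numbered 5 without mg54 double replicate 2.

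**Figure D5:**
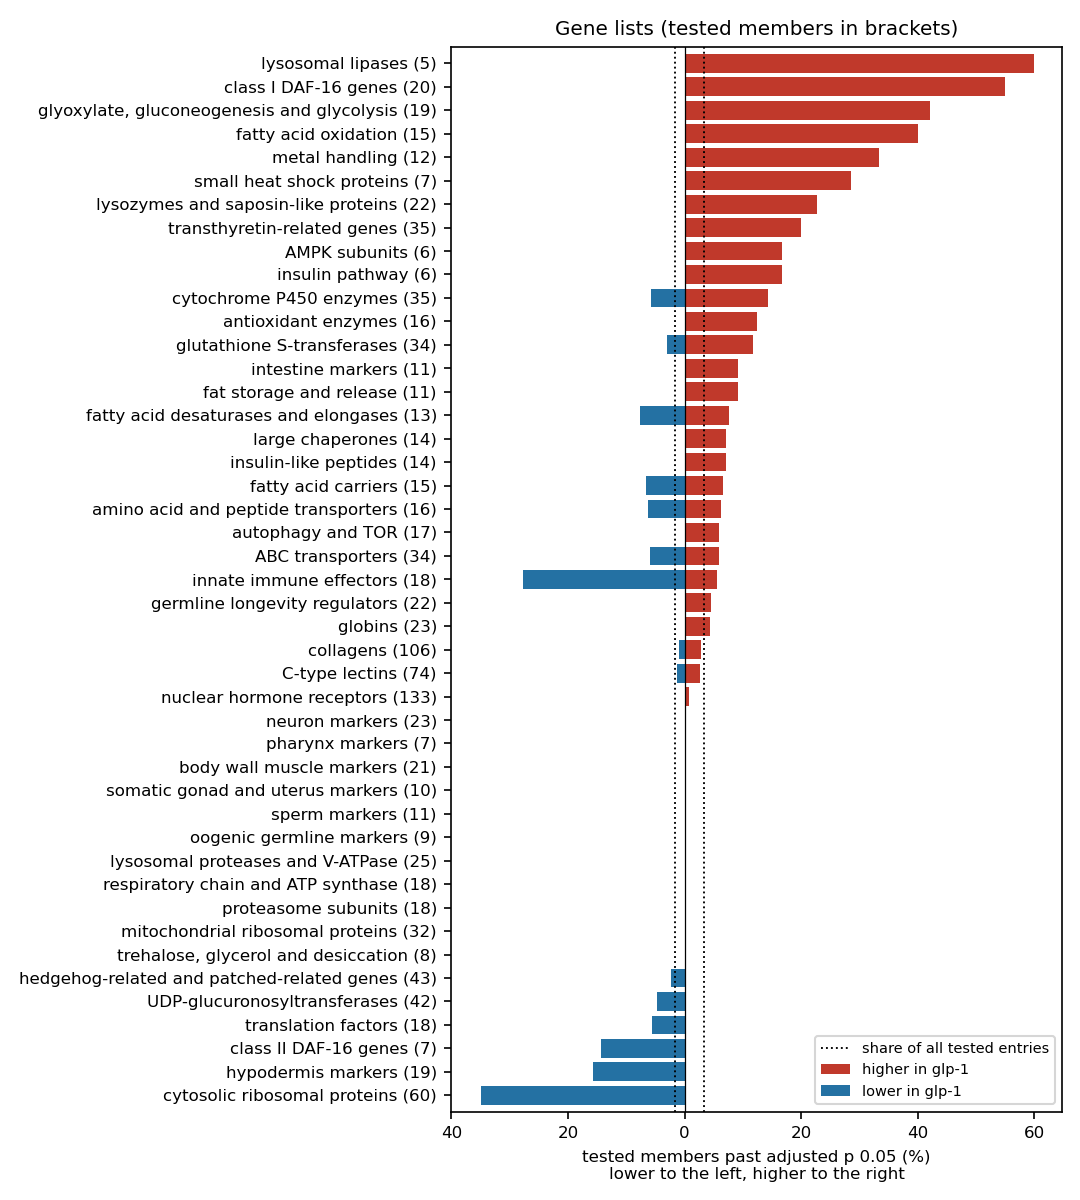
Percent of the tested members of each gene list with at least 5 tested that were higher (red, to the right) or lower (blue, to the left) in glp-1 than in the mean of both doubles at an adjusted p under 0.05, with dotted lines at the share of all tested entries, 3.41% and 1.62%. Lysosomal lipases (3 of 5) and class I genes (11 of 20) have the longest bars to the right, and cytosolic ribosomal proteins (21 of 60) the longest to the left.

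The same contrast, single mutant minus the mean of its daf-16 doubles, was set against that in 2 insulin receptor mutants of the series, the strong allele daf-2(e1370) and the weaker allele daf-2(e1368). Those strains have a germline, ended their growth at 20 °C and carry a separate run of sample numbers. Background, germline, temperature and library series therefore cannot be told apart. The effects came from 1 fit of all 50 libraries, which also held the 5 wild-type libraries at 20 °C. In it, 391 of 12340 entries (3.17%) were higher and 468 (3.79%) lower in glp-1 than in its doubles. More were lower than in the fit of 15, and the median over all entries was −0.069, against −0.01 there. The counts were 1535 (12.4%) and 1875 (15.2%) for daf-2(e1370), and 307 (2.49%) and 228 (1.85%) for daf-2(e1368). The daf-16 effect in glp-1 differed from that in daf-2(e1370) for 893 entries (7.24%), higher for 352 (2.85%) and lower for 541 (4.38%). It differed from that in daf-2(e1368) for 107 (0.867%), higher for 32 (0.259%) and lower for 75 (0.608%). Over all entries the median difference was −0.029 from daf-2(e1370) and −0.061 from daf-2(e1368). Both differences use the same 15 glp-1 libraries. Of the 893, 39.4% were higher in glp-1 with TMM factors and 53.6% with DESeq2 size factors. With the replicate number as a block, the 893 became 1514 and the 107 became 255. The 107 became 57 without glp-1 replicate 4, 69 without daf-2(e1368) replicate 1, 164 without mg54 double replicate 2, 193 without mu86 double replicate 3 and 209 without the 3 libraries that stood apart. Of 21 class I genes tested in this fit, 13 had a lower daf-16 effect in glp-1 than in daf-2(e1370) and 0 a higher one, and 1 was lower than in daf-2(e1368). Their median effects were 1.03 in glp-1, 2.09 with e1370 and 1.02 with e1368.

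sod-3 illustrates this, with a daf-16 effect of 2.44 in glp-1, 4.68 with e1370 and 2.74 with e1368. The glp-1 effect of sod-3 was lower than the first by 2.24 ± 0.28 (−2.24, adjusted p = 1.33e-07) and did not differ past the threshold from the second (−0.30 ± 0.28, adjusted p = 0.798). For lipl-4 the effects were 1.92, 1.68 and 1.16, with neither difference past the threshold (adjusted p = 0.77 and 0.486). glb-1 had effects of 3.32, 3.27 and 1.14, and its effect was larger than in daf-2(e1368) by 2.17 ± 0.34 (adjusted p = 8.09e-05).

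The test of the difference also picked out genes whose daf-16 effects had opposite signs or very unequal sizes. fat-7 had daf-16 effects of 0.89 in glp-1, −2.07 with e1370 and −1.11 with e1368, and the differences of 2.96 and 2.01 passed (adjusted p = 7.2e-12 and 9.21e-07). fbxb-7 had effects of 5.43, 0.48 and 0.56, with differences of 4.96 and 4.87 (adjusted p = 3.47e-11 and 1.96e-10). Its mean level was 2.22 CPM in glp-1, 0.0568 and 0.0362 in the glp-1 doubles, and 3.31 to 6.81 CPM in the 6 daf-2 strains. The immune genes dod-24 and F55G11.2 had daf-16 effects of −4.45 and −5.50 in daf-2(e1370) against −0.55 and −1.01 in glp-1, where that of dod-24 did not pass (adjusted p = 0.121). Their differences of 3.90 and 4.50 had adjusted p = 4.26e-11 and 8.13e-13. Of 18 innate immune effectors, the difference from daf-2(e1370) passed with a higher effect in glp-1 for 7 and a lower one for 2. For the ribosomal proteins, 0 of 55 differed from daf-2(e1370) and 1 from daf-2(e1368), with median effects of −0.32, −0.44 and −0.08 in the 3 backgrounds.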

How the data were processed

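The authors deposited estimated counts per gene entry and library in 1 table. Build ce10, TopHat2 2.0.9, Cuffdiff 2.1.1 and Bowtie2 2.1.0 are named in the submitters' processing notes, without roles; no source used here gives annotation or strand. Values were rounded to whole numbers, from which 72.2% of those above 0 differed by less than 0.02. Of 34207 entries, 314 without a gene name (0.378% to 0.48% of a library) were left out, and 849 with repeated name and locus were summed. The 4488 entries naming several genes (25.4% to 27.6%) were tested as such. An exact 0 can be a failed estimate: 1 locus of 164 entries, at 0 throughout a strain while another averaged at least 1000 fragments, was left out. Table starts count from 0 and are given 1-based. WBcel235 served for names alone.

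The 15 libraries were fitted together in edgeR 4.0.16 (R 4.3.3) on strain by robust quasi-likelihood, after filterByExpr and TMM scaling, with Benjamini-Hochberg adjustment over all entries tested. The comparison with daf-2 backgrounds used 1 such fit of 50 libraries. CPM use TMM-scaled library sizes. SE is the log2 difference over the square root of F. Common biological variation was 0.251. Replicate pairs differed by a chi-square per degree of freedom of 16.7 to 172.3, so none looked deposited again. The tests were also run on simulated data.

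The strains, the 47 gene lists (textbook knowledge and gene class names) and the rule for named genes were chosen with earlier results of these data known. The rule takes, among single-gene entries that pass, the 12 highest and 12 lowest without overlap between libraries and the 6 largest gains and losses in CPM, and beside these up to 4 members per list by smallest p, the 5 highest and 5 lowest that differ between the doubles or between backgrounds, and the germline longevity list. Further members are named where a list is given in full. Alternatives were other normalization (DESeq2 1.42.0), filter, test, library sets, entries and covariates. Errors beside CPM are SD, n = 5.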

Additional observations from a re-analysis of the deposited data

Results flagged for a closer look

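A sample far from the other 4 of its strain, by a limit that chance passes in about 1 in 20 groups, was found in 18 of 147 groups checked (49 genes in 3 strains). Most were in the 3 libraries that stood apart. In glp-1 replicate 0 mtl-1 was at 305 CPM, F56D6.9 at 52.5, T23F4.3 at 30.8, scl-20 at 10.5 and glb-1 at 571, each above the other 4. In mu86 double replicate 3 mtl-1 was at 18.2 CPM, lipl-5 at 1420, acp-6 at 2780, glb-1 at 55.5, F35E12.5 at 1530 and bec-1 at 47.9, also each above the others. In mg54 double replicate 2 scl-20 was at 0.227 CPM, ilys-5 at 1430 and gst-38 at 14.5, again above. The rest were lipl-5 at 1180 CPM in mg54 double replicate 4 (below the others), F56D6.9 at 0.353 in mg54 double replicate 3, F17B5.1 at 0.0582 in mu86 double replicate 4, and the entry H36N01.2,H36N01.3,R13H8.4 at 0.344 in glp-1 replicate 3 (below the others).

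The daf-16 effect in glp-1 minus that in daf-2(e1370) passed edgeR's quasi-likelihood test at the high end for clec-74 (5.91), fbxb-7 (4.96), F55G11.2 (4.50), clec-245 (4.2) and dod-24 (3.90), and at the low end for spp-9 (−11.23), T12D8.5 (−8.83), H39E23.3 (−7.18), ZC155.8 (−6.51) and Y24D9A.9 (−6.32). Against daf-2(e1368) the ends were fbxb-7 (4.87), nhr-17 (3.78), dod-24 (2.25), glb-1 (2.17) and fat-7 (2.01), and spp-9 (−6.68), W01C9.2 (−4.49), ugt-18 (−3.73), Y6G8.9 (−3.32) and Y54G2A.36 (−3.04). spp-9 was listed at 0 in all 5 glp-1 libraries, T12D8.5 at 0 in the daf-2 doubles, and Y6G8.9 at 0 in the daf-2(e1368) doubles, so their fitted differences depend on the prior count and are no bounds. ZC155.8 and Y24D9A.9 rested on daf-2(e1370) replicate 2, a library of 2.37 in units of 1000000 fragments: without it they stood at 0.726 and −0.252 (adjusted p = 0.824 and 0.91). Against daf-2(e1368) the spp-9 call was lost without any 1 of 18 libraries (adjusted p from 0.0502 to 0.166), the nhr-17 call without any 1 of 11 (0.0526 to 0.386) and the Y6G8.9 call without mu86 double replicate 4 (0.0528).

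H39E23.3 had daf-16 effects of 4.50 in glp-1, 11.68 with e1370 and 1.13 with e1368, with mean levels of 2.1, 187 and 0.0962 CPM in the 3 single mutants. Y54G2A.36 had effects of −0.07, 0.47 and 2.97, with 0.704, 13.8 and 67.2 CPM. clec-74, which shares its listed span with F56D6.9 and dct-8, was at 4.26 CPM in glp-1, 0.00592 with e1370 and 0.196 with e1368.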

How the results depend on the processing

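Every value below is the number of entries past the threshold, in the order glp-1 against the mean of both doubles, against mg54, against mu86, between the doubles, and between the daf-16 effect in glp-1 and in daf-2(e1370) and daf-2(e1368), which is 522, 316, 322, 2, 893 and 107 as reported. DESeq2's test called 869, 612, 597 and 21 in the first 4. Without the library of lowest correlation with its strain (mu86 double replicate 3) the first was 841 and the third 586. With the compared strains fitted alone the mu86 count was 192, on fewer samples. A 2-fold minimum left 141. Single-gene entries alone left 1 between the doubles, since the joined non-coding entry at the daf-16 locus was then not tested. Chosen after the data were seen, leaving out 3 libraries gave 915, 551, 670, 4 and, for the last, 209, and a covariate for the first component of the deviations from strain means gave 1224, 897, 922 and 12. DESeq2 size factors and no filter moved none of these 6 totals by over 1.5 times, nor did the 10 doubles as 1 group and loci at 0 kept, run for the first alone; with DESeq2 size factors the 352 higher than in daf-2(e1370) became 540 and the 75 lower than in daf-2(e1368) became 45. Leaving out 1 library at a time gave 319 to 841, 162 to 426, 190 to 586, 2 to 5, 716 to 1064 and 57 to 193. The cause of these changes was not tested. Of the named genes called, each kept the call with DESeq2's test, 79 kept it without glp-1 replicate 0 and 25 lost it, and 0 reversed; between backgrounds ZC155.8 reversed, at 0.726 without daf-2(e1370) replicate 2 and down to −7.32 without other single libraries.

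Replicate numbers did not pair the libraries: correlations of same-numbered libraries ran from −0.368 to 0.665 and 2 of 15 libraries correlated best with their own number. A fit with the replicate number as a block called 272, 147, 147, 1, 1514 and 255, and 35 of the named calls against the mean of the doubles were lost (69 kept). In that fit 1 ribosomal protein gene fell, and 2 genes each of sugar metabolism and of fatty acid oxidation rose. The class I genes that rose numbered 10, and the innate immune effectors that fell stayed at 5. Depth limits genes near 1 CPM, where a library holds about 13.82 to 23.81 fragments of them.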
